A study of Rattus norvegicus with 8 samples.

Results

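The cytochrome P450 genes described here are the 53 rat genes, of 14511 genes measured, whose symbols begin with Cyp and a digit, other than the Cyp2c and Cyp3a families and Cyp7a1, Cyp7b1, Cyp8b1, Cyp27a1 and Cyp51. These exceptions removed 16 of the 69 P450 genes among those measured, and each remaining gene was read by the only probe set that carried its symbol alone. Liver RNA of female Wistar rats, an outbred strain, was hybridised to 8 Affymetrix Rat Gene 1.0 ST arrays. The 4 groups, with 2 arrays each, were livers of rats aged 2, 4 and 12 weeks and the liver left in place 8 h after partial hepatectomy (PH), in which 2/3 of the organ had been removed. All groups were female, of 1 strain, and carried no named genetic change or drug. No source used here states how old the operated rats were, and sham surgery was not analysed here, so the operation, the rats' age and the hour of sampling cannot be told apart in the PH group. Sample titles name biological replicates but the series text describes duplicates, so p-values measure the spread between the 2 arrays of a group, which may be technical in part.

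P450 enzymes are haem proteins, mostly of the endoplasmic reticulum, that insert 1 atom of oxygen into a substrate with electrons passed on by NADPH-P450 reductase (Por) or, in mitochondria, by ferredoxin. Liver holds the richest supply of them, and families differ in substrate: Cyp1 and Cyp2 enzymes oxidise drugs, plant compounds and steroids, Cyp4 enzymes oxidise the ends of fatty acids and eicosanoids, and single genes act in steroid hormone, retinoic acid, vitamin D and sterol metabolism. Many are transcribed under ligand-activated factors, among them the Ah receptor for Cyp1, CAR for Cyp2b and PPAR alpha for Cyp4a.

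The tissue label was checked with 8 hepatocyte markers, whose mean level lay between 13.14 and 13.41 on the log2 scale on all 8 arrays, with 0 called in any comparison. The 12-week arrays stood furthest apart: 1838 genes differed at least 2-fold between them, against 432 to 621 in the other groups, and 8 of the 53 P450 genes did, against 2 to 4. Chemosensory receptor genes (1280), which have no known place in liver, had a median of 4.74 and 3.92 at 12 weeks, 4.65 and 4.17 after PH, and 4.01 to 4.07 otherwise. In whole-liver RNA, fewer cells of a type and less RNA per cell cannot be told apart.

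Many members lie side by side in the genome and come from recent duplications, which bears on what a probe set reads. The sequences just upstream of 3 Cyp2b genes and 2 Cyp2d genes are shown because these neighbours gave unlike values in 2-week liver. They are RefSeq sequences of build GRCr8, each from the window of 250 bases before to 50 after the gene's start, less any bases inside the gene record, and given 5′ to 3′ on the gene's strand. Cyp2b1 lies at chr1:90645869-90646097 (plus strand), Cyp2b2 at chr1:90722031-90722242 (plus) and Cyp2b3 at chr1:90780242-90780467 (plus). Cyp2d3 lies at chr7:115802143-115802392 (minus) and Cyp2d5 at chr7:115784555-115784737 (minus). Capitals mark bases with no identical partner in the alignment of Cyp2b1 with Cyp2b2, of Cyp2b3 with Cyp2b1, and of Cyp2d3 with Cyp2d5, including ends that the partner's window does not reach.
Cyp2b1: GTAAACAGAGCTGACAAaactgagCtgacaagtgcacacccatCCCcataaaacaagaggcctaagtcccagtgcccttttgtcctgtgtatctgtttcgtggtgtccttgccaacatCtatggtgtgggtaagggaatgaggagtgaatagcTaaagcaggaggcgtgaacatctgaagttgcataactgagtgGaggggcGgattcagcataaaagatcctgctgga
Cyp2b2: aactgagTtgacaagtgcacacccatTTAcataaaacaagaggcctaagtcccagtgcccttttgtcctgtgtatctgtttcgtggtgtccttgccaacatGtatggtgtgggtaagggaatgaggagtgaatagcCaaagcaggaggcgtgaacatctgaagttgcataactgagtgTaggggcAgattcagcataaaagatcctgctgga
Cyp2b3: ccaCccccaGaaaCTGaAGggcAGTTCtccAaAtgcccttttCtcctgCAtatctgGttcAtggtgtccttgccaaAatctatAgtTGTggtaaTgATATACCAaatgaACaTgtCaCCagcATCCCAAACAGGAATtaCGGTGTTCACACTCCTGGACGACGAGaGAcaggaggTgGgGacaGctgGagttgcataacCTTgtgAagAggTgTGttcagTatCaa
Cyp2d3: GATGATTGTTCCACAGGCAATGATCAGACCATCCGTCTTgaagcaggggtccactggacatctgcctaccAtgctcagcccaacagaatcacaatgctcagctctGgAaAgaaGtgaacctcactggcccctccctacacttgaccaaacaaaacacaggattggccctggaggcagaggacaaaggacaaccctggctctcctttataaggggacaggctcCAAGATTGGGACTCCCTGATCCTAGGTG
Cyp2d5: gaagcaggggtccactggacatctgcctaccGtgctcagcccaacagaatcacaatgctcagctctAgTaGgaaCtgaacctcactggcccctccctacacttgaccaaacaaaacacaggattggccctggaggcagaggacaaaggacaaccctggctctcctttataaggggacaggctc

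The Cyp2b1 and Cyp2b2 windows shared 204 of 212 aligned bases (96.2%), while Cyp2b1 and Cyp2b3 shared 129 of 177 (72.9%). The Cyp2d3 and Cyp2d5 windows shared 178 of 183 (97.3%), and Cyp2d1 and Cyp2d3 shared 226 of 246 (91.9%). These windows leave out bases inside the gene records, so their identity does not show how alike the transcripts or probes are. Near-identical copies can share signal between probe sets, but probe sequences were not at hand and this was not tested. The separate values of Cyp2b1 and Cyp2b2, of Cyp2d1, Cyp2d3 and Cyp2d5, and of other close copies are therefore uncertain. RefSeq windows were at hand for 42 of the 53 members. Short motifs were searched on both strands of the whole windows, which keep the bases inside the gene record that the printed sequences leave out. The Ah receptor core GCGTG stood in 16 of 42 (38.1%) against 31.1% of all 27457 promoters, the nuclear receptor half-site AGGTCA in 13 (31.0%) against 15.7%, and the HNF1 half-site GTTAAT in 5 (11.9%) against 7.37%. Of the genes printed above, Cyp2b1 and Cyp2b2 held GCGTG, and Cyp2b3, Cyp2d3 and Cyp2d5 held none of these letters. Related copies are not independent in the members' shares. Cyp2b12, Cyp2b15 and Cyp2b21 all held AGGTCA, with upstream windows 77.1% to 92.9% identical.

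Levels are deposited log2 values after robust multi-array averaging (RMA), so a difference of 1 is 2-fold, and low levels cannot be told from background and have compressed differences. Among the 53 genes, 29 had a mean level at or above that of the median gene (6.75) and 24 lay below it. The 4 group means of a gene lay within 2-fold of each other for 34 of the 53 members, against 88.8% of all genes. Of these 34 steady genes, 21 were in the lower part of the scale, among them the adrenal genes and the vitamin D genes Cyp24a1 and Cyp27b1. The members were put into 9 role groups by symbol.

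**Figure D1:**
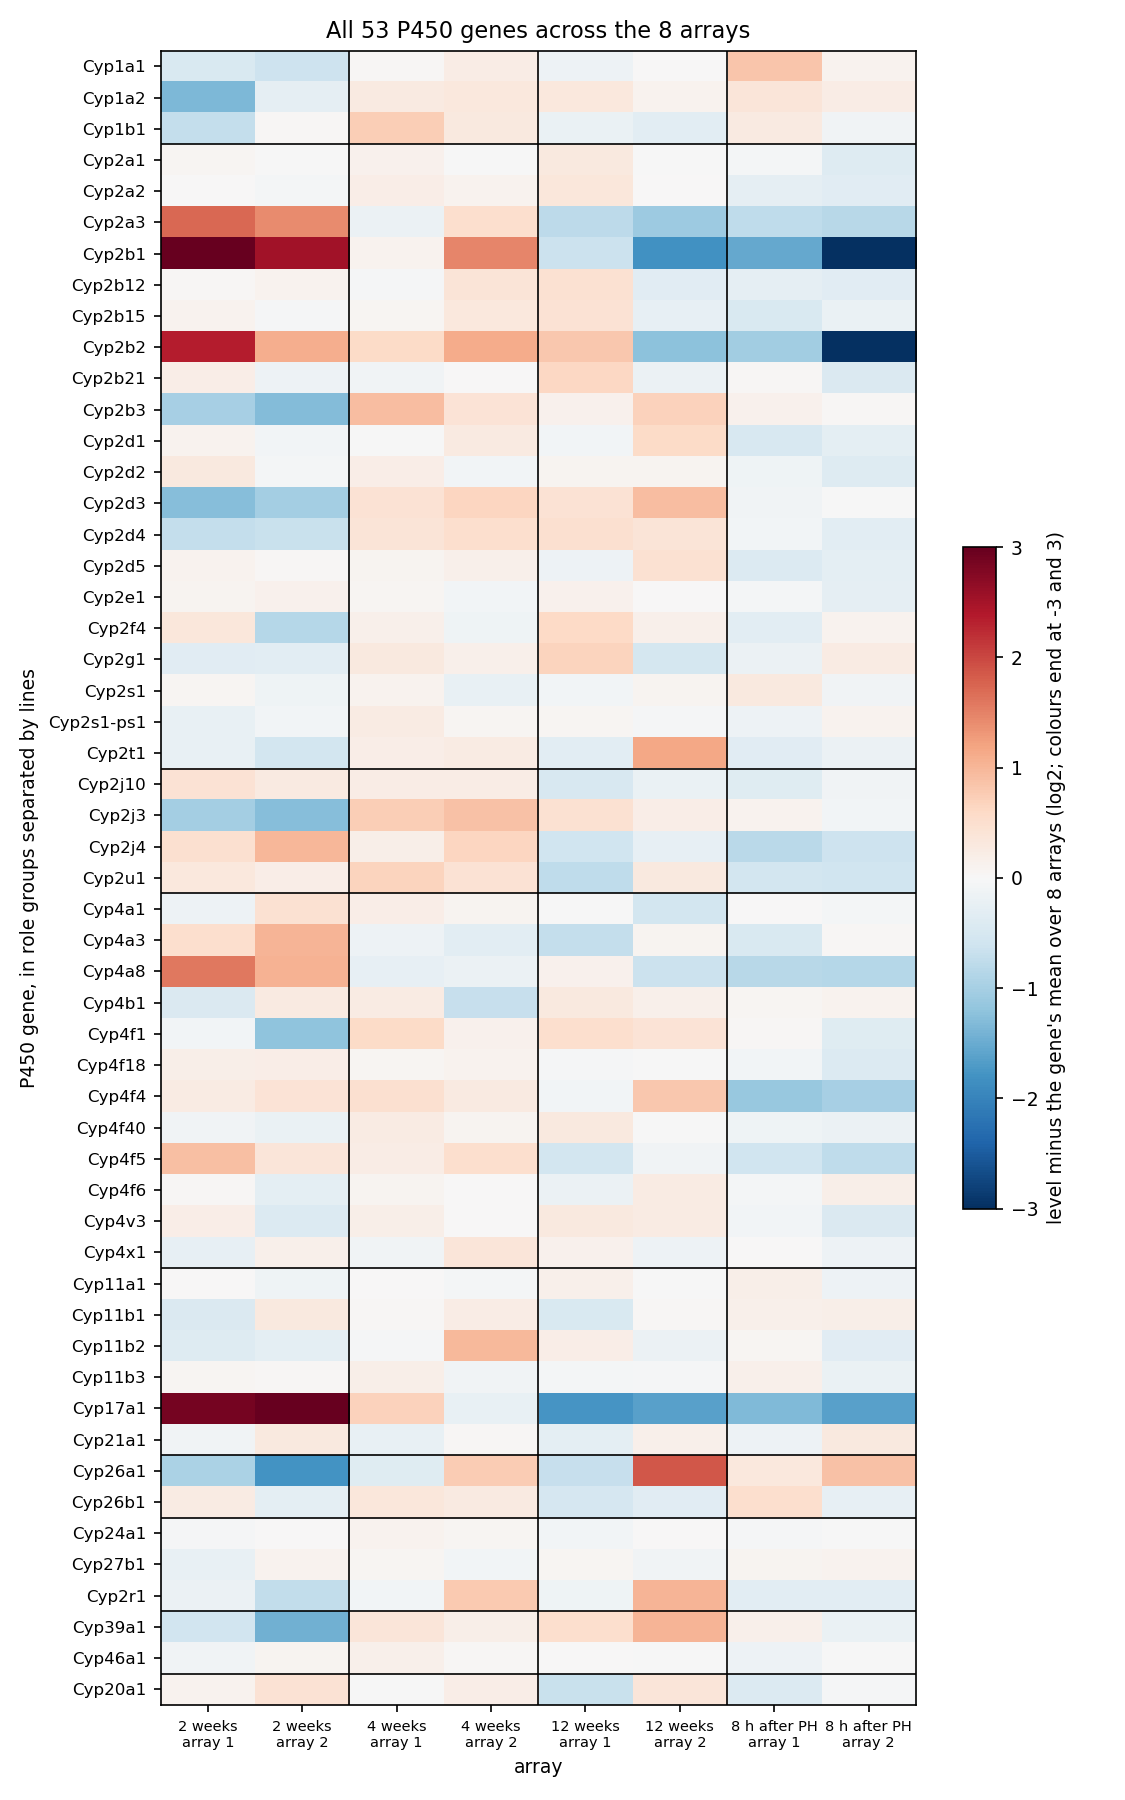
Heat map of the 53 P450 genes (vertical, in role groups) on the 8 arrays (horizontal), coloured by the log2 level minus the gene's own mean over the arrays. Cyp17a1, Cyp2b1 and Cyp2a3 are highest on both 2-week arrays, where Cyp2b3, Cyp2d3 and Cyp2j3 are lowest.

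A gene was called at an adjusted p under 0.05 in limma, with Benjamini-Hochberg adjustment over all 14511 genes. Between 2 and 12 weeks, 9 members were called, 4 higher and 5 lower at 2 weeks, against 2.23% of all genes (1.29% higher, 0.937% lower). Between 2 and 4 weeks 4 members were called, 1 higher and 3 lower at 2 weeks, against 0.455% of all genes (0.152% higher, 0.303% lower). Between 4 and 12 weeks 0 were called, against 0.11% of all genes, with 9 members at an unadjusted limma p under 0.05 against 4.47% of genes. Between PH and 12 weeks 0 were called, against 0.0345%, with 5 members at an unadjusted limma p under 0.05 against 6.01%. The F test of any difference among the 4 groups called 7 members, against 1.79% of all genes. The comparisons with 12 weeks share the 12-week arrays, and both comparisons of 2-week liver share the 2-week arrays.

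The count for 2 against 12 weeks depended on single arrays. It was 3 on leaving out the first 2-week array, 4 without the second one or the second 12-week array, and 5 without either PH array, which enter through the shared estimate of spread. For 2 against 4 weeks it was 0 without the second 2-week or the second 4-week array, 1 without the first of either, and 2 without either PH array. The F test count was 1 without either 2-week array and 3 without either 4-week or either PH array.

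**Figure D2:**
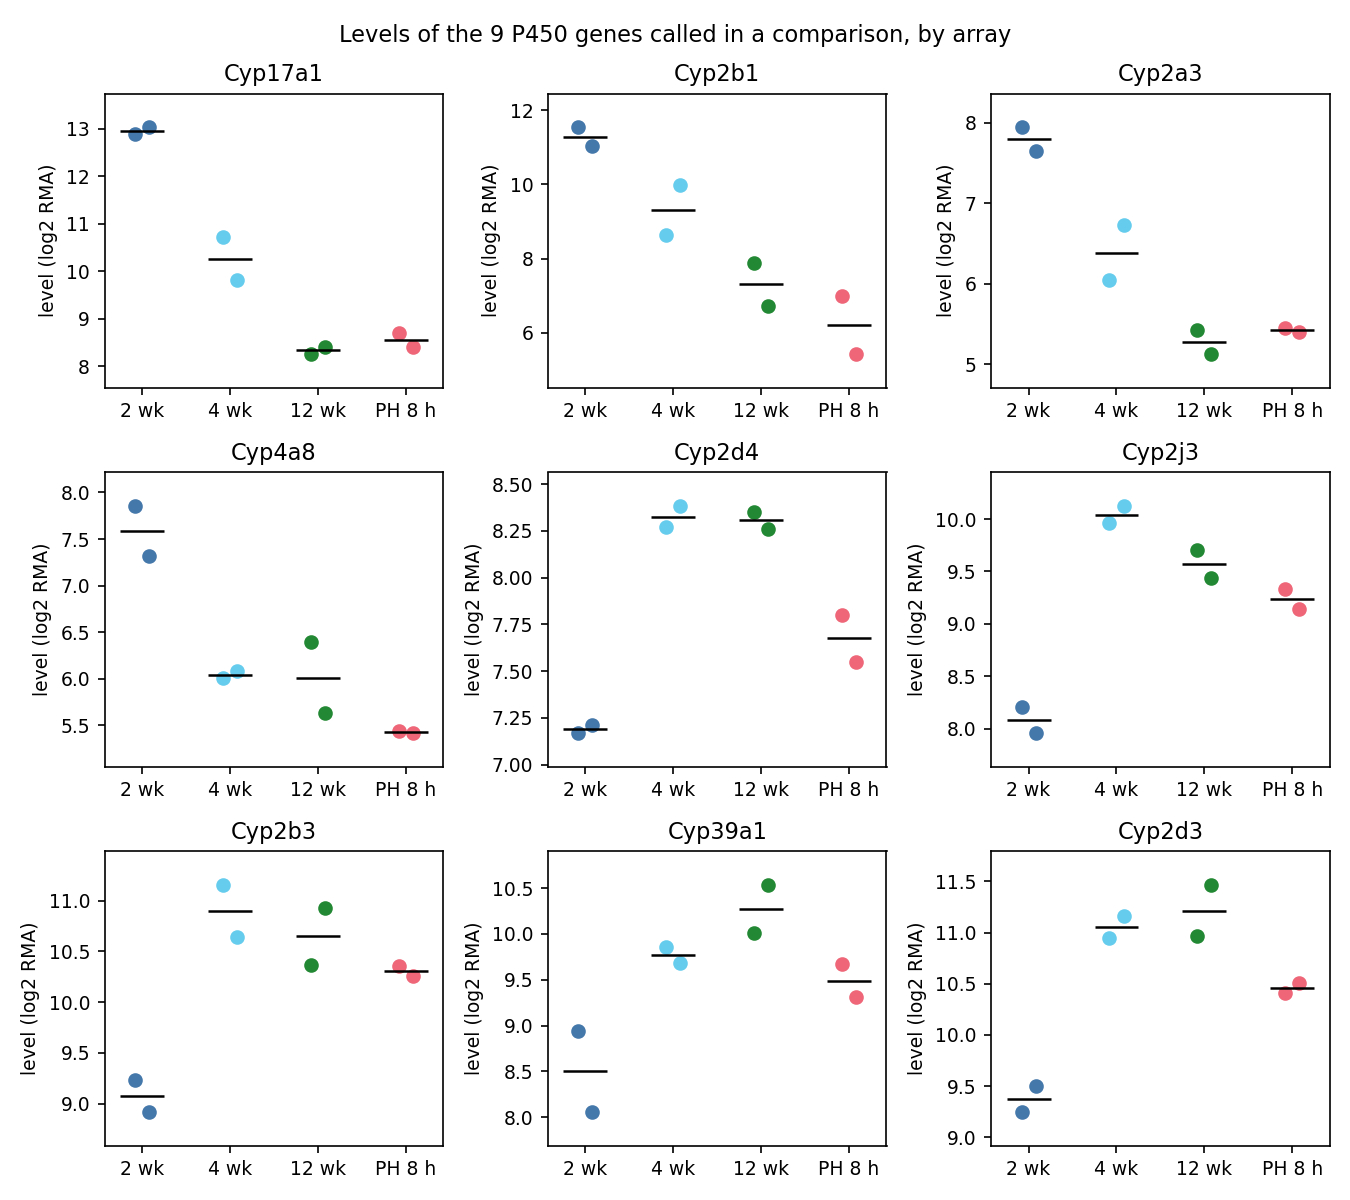
Levels (log2 RMA, vertical) of the 9 P450 genes called in a comparison, 1 point an array, for livers at 2, 4 and 12 weeks and 8 h after PH, with a line at each group mean. The 2-week points lie apart from the 12-week points for each of the 9 genes, above them for Cyp17a1, Cyp2b1, Cyp2a3 and Cyp4a8 and below them for the other 5.

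Among 6 genes of steroid hormone synthesis, Cyp17a1 was higher at 2 weeks than at 4 and 12 weeks. The other 5 did not pass the test in any comparison. Cyp17a1 encodes the hydroxylase and lyase that leads from progestogens to androgens. Its level was 12.89 and 13.03 on the 2-week arrays, 10.72 and 9.81 at 4 weeks, 8.26 and 8.41 at 12 weeks, and 8.70 and 8.40 after PH. The order by age was the same on every array, with no overlap between 2, 4 and 12 weeks, while the PH and 12-week arrays overlapped. The 2-week mean exceeded the 12-week mean by 4.62 ± 0.31 (SE, log2, 2 arrays a group), a 24.66-fold difference (limma adjusted p = 0.0002847), and the call held in 15 of 15 alternative settings. Against 4 weeks the difference was 2.69 ± 0.31 (limma adjusted p = 0.009931), called in 12 of 15 alternatives but lost without either 2-week array (adjusted p = 0.07016 and 0.0909) and without the second 4-week array (0.05175). At 4 against 12 weeks it was 1.93 ± 0.31 with a limma adjusted p of 0.1186.

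The 4 measured marker genes of adrenal cortex and gonad, of 6 listed, had a mean level between 4.92 and 5.51 on all arrays, and 0 were called. Cyp11a1, which cleaves the cholesterol side chain in steroid-making glands, ranged from 4.93 to 5.25 across the 8 arrays. Cyp21a1, the adrenal steroid hydroxylase, ranged from 3.79 to 4.39. The adrenal Cyp11b1, Cyp11b2 and Cyp11b3 lay between 3.38 and 5.76, so Cyp17a1 was the only gene of its group with a mean level above that of the median gene.

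The 20 genes of the drug and steroid families gave 2 called higher and 3 called lower at 2 against 12 weeks, and 2 called lower at 2 against 4 weeks. Their median difference between 2 and 12 weeks was -0.15. Cyp2b1 and Cyp2b2 are the classic phenobarbital-inducible P450s of rat liver. Cyp2b1 stood at 11.54 and 11.04 at 2 weeks, 8.64 and 9.99 at 4 weeks, 7.89 and 6.71 at 12 weeks, and 6.99 and 5.43 after PH. Its levels fell into the age order without overlap, and the PH arrays overlapped those of 12 weeks. Cyp2b1 was 3.99 ± 0.63 higher at 2 than at 12 weeks (15.94-fold, limma adjusted p = 0.01712). The call held in 12 of 15 alternatives and was lost without either 2-week array (adjusted p = 0.1302 and 0.06352) or without the second 12-week array (0.0585).

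Cyp2b2 stood at 12.66 and 11.39 at 2 weeks, 10.88 and 11.43 at 4 weeks, 11.12 and 9.09 at 12 weeks, and 9.26 and 6.66 after PH. Its arrays stood far apart within the PH and 12-week groups, the 2-week and 4-week arrays overlapped, and so did those of PH and 12 weeks. The 2-week mean was 1.92 ± 0.90 above that of 12 weeks, which did not pass the test (limma adjusted p = 0.5008). It was 0.90 without the second 12-week array (limma adjusted p = 0.6072), 2.93 without the first (0.2798), and 1.28 without the first 2-week array (0.9996). It passed in 1 of 15 alternatives, with the receptor-gene median of each array as a covariate (2.76, limma adjusted p = 0.03866).

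Cyp2b3, the neighbour of both, had the opposite sign. Its level was 9.23 and 8.92 at 2 weeks, 11.15 and 10.64 at 4 weeks, 10.37 and 10.93 at 12 weeks, and 10.36 and 10.26 after PH. The 2-week arrays lay below the other 6. The 2-week mean was lower than the 12-week mean by 1.58 on the log2 scale (difference -1.58 ± 0.28, limma adjusted p = 0.02907), called in 8 of 15 alternatives. Against 4 weeks it was -1.83 ± 0.28 (limma adjusted p = 0.04015), called in 7 of 15. Of the alternatives without 1 array, 5 ended the first call and 6 the second, with the adjusted p reaching 0.1509 and 0.2751. The other Cyp2b genes, Cyp2b12, Cyp2b15 and Cyp2b21, had levels between 4.04 and 6.41, and their 2-week differences from 12 weeks lay between -0.20 and 0.02.

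Among the Cyp2a genes, which hydroxylate coumarin and steroids, Cyp2a3 was higher at 2 than at 12 weeks. This gene is best known from nasal mucosa and lung. It stood at 7.94 and 7.65 at 2 weeks, 6.04 and 6.73 at 4 weeks, 5.43 and 5.13 at 12 weeks, and 5.45 and 5.40 after PH. The levels fell in the age order without overlap between the 3 ages. The difference of 2.52 ± 0.28 between 2 and 12 weeks was called (limma adjusted p = 0.004117) and held in 14 of 14 alternatives in which the gene was tested. Against 4 weeks the 2-week level was 1.41 higher (limma adjusted p = 0.1102). Cyp2a1, the steroid hydroxylase of rat liver, ranged from 11.90 to 12.57, and Cyp2a2, known as a male-predominant form, from 5.06 to 5.75, with no call for either.

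The 5 Cyp2d genes, relatives of the human debrisoquine hydroxylase, split into 2 that were lower at 2 weeks and 3 that did not pass. Cyp2d3 stood at 9.25 and 9.50 at 2 weeks, 10.95 and 11.16 at 4 weeks, 10.97 and 11.46 at 12 weeks, and 10.41 and 10.51 after PH. Its 2-week arrays lay below the other 6, and its PH arrays lay below those of 4 and 12 weeks. The difference from 12 weeks was -1.84 ± 0.25 (limma adjusted p = 0.008733), called in 14 of 15 alternatives and lost without the first 2-week array (0.08003). From 4 weeks it was -1.68 ± 0.25 (limma adjusted p = 0.03211), called in 7 of 15 and lost on leaving out any 1 of the 2-week, 4-week or PH arrays, with the adjusted p reaching 0.2543.

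Cyp2d4, the Cyp2d form known from brain, stood at 7.17 and 7.21 at 2 weeks, 8.27 and 8.38 at 4 weeks, 8.35 and 8.26 at 12 weeks, and 7.80 and 7.55 after PH. The 2-week arrays were again the lowest, and the PH arrays lay between them and the other 4. The difference from 12 weeks was -1.12 ± 0.21 (limma adjusted p = 0.03471). It was called in 5 of 15 alternatives and in 0 of the 8 that left out 1 array, where the adjusted p reached 0.2023. Against 4 weeks the difference was -1.14, with a limma adjusted p of 0.08605. Cyp2d5, whose upstream window is nearly that of Cyp2d3, differed by -0.08 between 2 and 12 weeks, with levels of 9.65 and 9.57 against 9.39 and 10.00. Cyp2d1 differed by -0.23 and Cyp2d2 by 0.04, both between overlapping arrays.

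Cyp2e1, the ethanol-oxidising P450 of the cells around the central vein, ranged from 13.12 to 13.54 over the 8 arrays, near the top of the array's scale, and was not called. The remaining drug-family genes, Cyp2f4, Cyp2g1, Cyp2s1, its pseudogene Cyp2s1-ps1 and Cyp2t1, were not called. Cyp2t1 was at 10.21 on the second 12-week array and between 8.51 and 9.30 on the other 7.

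Of 4 genes in the epoxygenase group, which convert arachidonic and other unsaturated fatty acids, Cyp2j3 was lower at 2 weeks than at 4 and 12 weeks. Its level was 8.21 and 7.96 at 2 weeks, 9.96 and 10.12 at 4 weeks, 9.70 and 9.44 at 12 weeks, and 9.33 and 9.14 after PH. The 4 groups did not overlap, in the order 2 weeks, PH, 12 weeks and 4 weeks. The 2-week mean differed from 4 weeks by -1.96 ± 0.22 (limma adjusted p = 0.009931) and from 12 weeks by -1.48 ± 0.22 (limma adjusted p = 0.01493). Each call held in 12 of 15 alternatives and was lost in 3 that left out 1 array. These were either 2-week array and the first 12-week array for 12 weeks, with an adjusted p up to 0.0825, and the second 2-week array and either 4-week array for 4 weeks, up to 0.1161.

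Cyp2j4, the next gene along the chromosome and a form known from intestine, stood at 10.45 and 10.97 at 2 weeks, 10.16 and 10.61 at 4 weeks, 9.37 and 9.73 at 12 weeks, and 9.17 and 9.35 after PH. The 2-week and 4-week arrays overlapped, and both lay above the other 4. Its difference between 2 and 12 weeks was 1.16 ± 0.28, which did not pass (limma adjusted p = 0.0939). Cyp2j10 differed by 0.70 in that comparison, at levels between 5.78 and 6.71. Cyp2u1, a fatty acid hydroxylase, stood between 6.87 and 7.35 on the 2-week and 4-week arrays and at 6.13 and 6.08 after PH, with 5.92 and 6.98 at 12 weeks.

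The enzymes of the 12 Cyp4 genes hydroxylate fatty acids and eicosanoids at the end of the chain. Of these genes, 1 was called higher at 2 against 12 weeks and 0 were called in the other comparisons. Cyp4a8, a form known from kidney, stood at 7.85 and 7.32 at 2 weeks, 6.01 and 6.08 at 4 weeks, 6.39 and 5.63 at 12 weeks, and 5.44 and 5.42 after PH. The 2-week arrays lay above the other 6. The difference from 12 weeks was 1.57 ± 0.30 (limma adjusted p = 0.03877), called in 5 of 14 alternatives, and 7 of the 8 fits without 1 array ended the call, with the adjusted p reaching 0.2619. The 3 measured kidney markers, of 4 listed, had mean levels between 4.53 and 4.96 on the 8 arrays, with 4.72 and 4.53 at 2 weeks.

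Cyp4a3 and Cyp4a1 are fatty acid hydroxylases under PPAR alpha. Cyp4a3 stood at 12.60 and 13.12 at 2 weeks and at 11.40 and 12.18 at 12 weeks, a difference of 1.07 ± 0.33 (limma adjusted p = 0.2032) that was 0.68 without the first 12-week array. Cyp4a1 ranged from 10.81 to 11.81 and differed by 0.43. Cyp4f1, which like Cyp4f4 acts on leukotrienes, stood at 11.48 and 10.36 at 2 weeks and at 12.07 and 11.98 at 12 weeks, a difference of -1.10 ± 0.37 (limma adjusted p = 0.2552) that was -1.66 without the first 2-week array and -0.55 without the second. Cyp4f5 had a 2-week difference of 0.97 from 12 weeks, with arrays at 8.00 and 7.46 against 6.53 and 6.99. Cyp4v3, a fatty acid hydroxylase, ranged from 8.42 to 9.14, and Cyp4b1, known from lung, from 6.67 to 7.64. The other 5 genes of the group, Cyp4f4, Cyp4f6, Cyp4f18, Cyp4f40 and Cyp4x1, differed between 2 and 12 weeks by values from -0.29 to 0.20 and were not called.

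The Ah receptor family gave 0 calls among its 3 genes. Cyp1a2, which oxidises caffeine and aromatic amines, stood at 11.31 and 12.39 at 2 weeks and between 12.78 and 13.03 on the other 6 arrays. Its difference from 12 weeks was -1.04 ± 0.34 (limma adjusted p = 0.2377), a value that moved with the 2-week array left out. It was -0.50 without the first (limma adjusted p = 0.8855) and -1.57 without the second, where it passed the test (limma adjusted p = 0.0478). Cyp1a1 stood at 10.85 and 10.12 after PH, 9.56 and 9.39 at 2 weeks, 10.05 and 10.22 at 4 weeks, and 9.85 and 10.01 at 12 weeks. The PH and 4-week arrays overlapped, and the PH difference from 12 weeks, 0.55, was not called. Cyp1b1 ranged from 4.27 to 5.72.

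Retinoic acid is broken down by Cyp26a1 and Cyp26b1, and neither was called. Cyp26a1 stood at 7.20 and 6.35 at 2 weeks, 7.78 and 8.90 at 4 weeks, 8.45 and 9.02 after PH, and 7.44 and 10.00 at 12 weeks. The 12-week arrays stood further apart than those of any other group, and the 2-week arrays lay below the other 6. The 2-week difference from 12 weeks was -1.95 ± 0.76 (limma adjusted p = 0.369). It was -0.67 without the second 12-week array (limma adjusted p = 0.486), -3.23 without the first (limma adjusted p = 0.03293) and -2.66 with the receptor-gene covariate (limma adjusted p = 0.01949).

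Cyp39a1, which hydroxylates oxysterols on the way to bile acids, was lower at 2 than at 12 weeks. It stood at 8.94 and 8.06 at 2 weeks, 9.86 and 9.68 at 4 weeks, 10.01 and 10.53 at 12 weeks, and 9.67 and 9.31 after PH. The 3 ages followed each other upwards without overlap. The difference between 2 and 12 weeks was -1.77 ± 0.33 (limma adjusted p = 0.03621), called in 6 of 15 alternatives, and 7 of the 8 fits without 1 array ended the call, with the adjusted p reaching 0.1509. Cyp46a1, the cholesterol hydroxylase of brain, ranged from 5.82 to 6.13. The vitamin D genes were not called: Cyp2r1, which adds the first hydroxyl group in liver, ranged from 6.85 to 8.61, Cyp24a1 from 4.70 to 4.90 and Cyp27b1 from 5.07 to 5.41. Cyp20a1, a P450 of unknown substrate, ranged from 6.86 to 7.96.

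A second description counted members whose group means differed at least 2-fold with no overlap between arrays, whatever the test. At 2 against 12 weeks there were 15, 7 higher and 8 lower, against 5.58% of all genes (3.25% higher, 2.33% lower). At 2 against 4 weeks there were 12, 4 higher and 8 lower, against 3.19% (1.38% higher, 1.81% lower). At 4 against 12 weeks there were 3 (Cyp2b1 at 2.02 ± 0.63, Cyp17a1 at 1.93 and Cyp2a3 at 1.10), all higher at 4 weeks, against 1.94% of all genes in either direction and 1.33% higher. These 3 genes lay between their 2-week and 12-week levels at 4 weeks. The count for 4 against 12 weeks was 5 without the first 4-week or the first 12-week array.

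**Figure D3:**
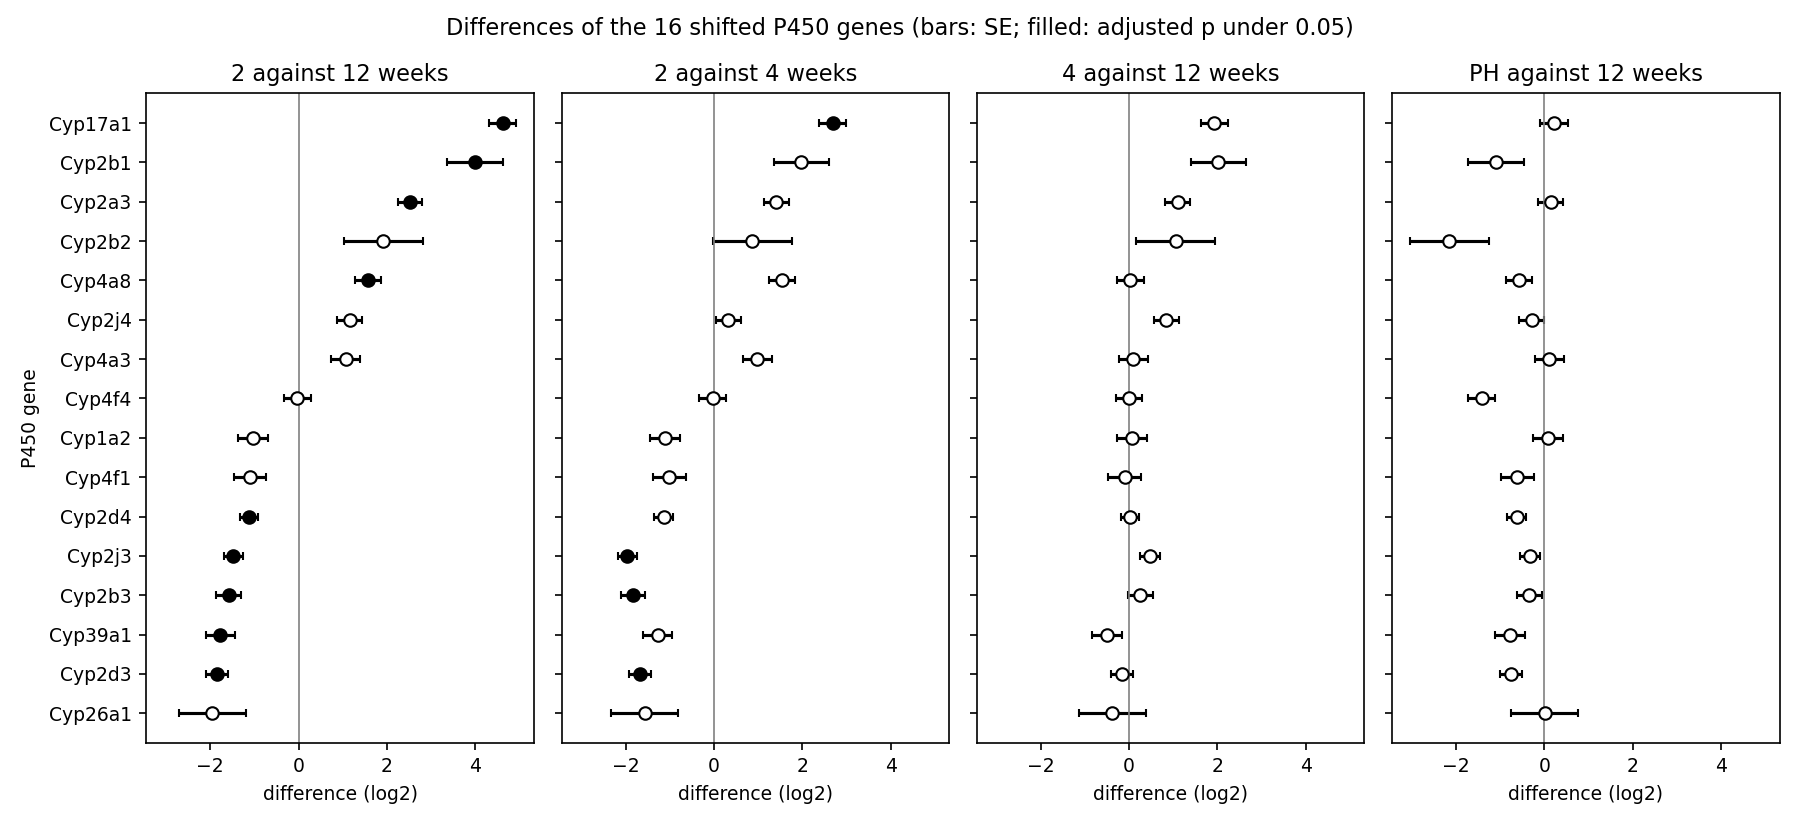
Differences (log2, horizontal) of the 16 P450 genes that differed at least 2-fold without overlap in 1 or more of the 4 comparisons, with bars for the SE of the limma fit and filled points for an adjusted p under 0.05. Filled points appear for 9 genes in the comparison of 2 with 12 weeks, for 4 in that of 2 with 4 weeks, and for 0 in the others.

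After PH, 36 of the 53 members had a mean below that of 12 weeks, with a median difference of -0.26, while the median over all genes was 0.00 and 49.7% of genes lay below 0. Among the 29 members in the upper part of the scale, 22 lay below 0, with a median of -0.35, against 45.6% of the genes there. Over the alternative settings the median of the 53 stayed between -0.29 and -0.19. The values for the upper part moved with the 12-week arrays: without the first, 25 of 29 lay below 0 (median -0.50) against 60.8% of the genes there, and without the second, 22 (median -0.21) against 36.8%. The PH mean was the lowest of the 4 for 22 members (41.5%, against 24.7% of all genes) and the highest for 7 (13.2%, against 26.5%). The 4-week mean was the lowest for 3 members (5.66%, against 23.1%). These ranks count gaps of any size, also at low levels. Cyp46a1 and Cyp4x1, both lowest after PH and below the median gene, had group means within 0.18 and 0.20 of each other. The ranks were not counted under the alternative settings. No single member passed the test against 12 weeks after PH.

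Cyp4f4, which acts on leukotrienes and other eicosanoids, was the only member at least 2-fold apart without overlap between PH and 12 weeks, against 2.38% of all genes in either direction and 1.28% lower. It stood at 8.95 and 9.09 after PH, 10.01 and 10.88 at 12 weeks, 10.33 and 10.50 at 2 weeks and 10.55 and 10.34 at 4 weeks. The PH arrays lay below the other 6, and the 3 ages overlapped. The difference was -1.42 ± 0.30 (limma adjusted p = 0.2627). Cyp2b2 had a larger PH difference of -2.15 ± 0.90, between arrays that overlapped (limma adjusted p = 0.8025). Leaving out the first 12-week array gave 6 such members, all lower after PH (Cyp4f4, Cyp2t1, Cyp2r1, Cyp26a1, Cyp39a1 and Cyp2d3). Leaving out the second one gave 3 (Cyp2b1, Cyp2b2 and Cyp26a1) without Cyp4f4, whose difference was then -0.99. Leaving out the first PH array gave 3 (Cyp2b1, Cyp2b2 and Cyp4f4). Cyp26a1 took both signs: it was -1.27 without the first 12-week array and 1.29 without the second.

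By gene order in GRCr8, with gaps of at most 500000 bases, 38 members lay in 7 runs of neighbours. Cyp1a2, Cyp1a1 and Cyp11a1 on chromosome 8 had 1 sign, at -1.04, -0.46 and -0.13 between 2 and 12 weeks. In the run of 14 genes on chromosome 1, Cyp2b1 and Cyp2a3 were called higher at 2 weeks, Cyp2b3 lower, and the other 11 were not called. The 3 Cyp2j genes of chromosome 5 went from 0.70 for Cyp2j10 and 1.16 for Cyp2j4 to -1.48 for Cyp2j3. In the Cyp2d run of chromosome 7, Cyp2d4 and Cyp2d3 were called lower at 2 weeks. Cyp2d5 and Cyp2d1, which lie between them, differed by -0.08 and -0.23.

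**Figure D4:**
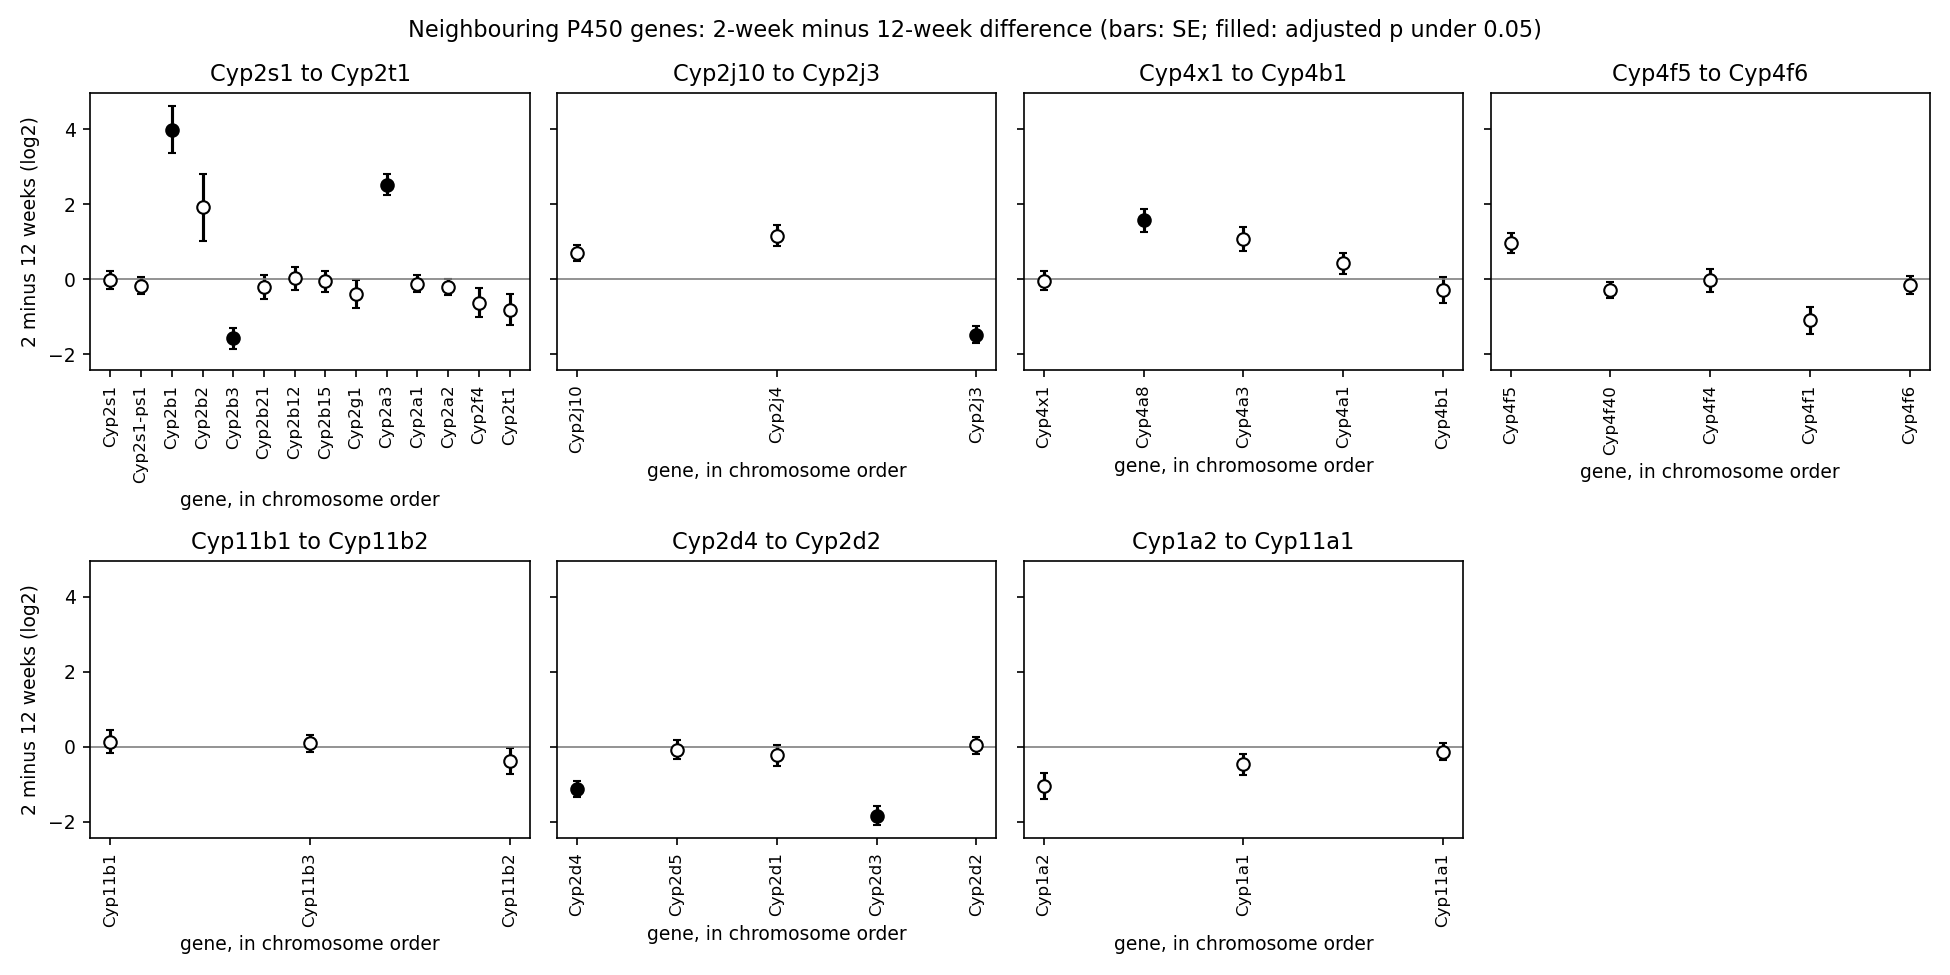
Difference of the 2-week from the 12-week mean (log2, vertical) for P450 genes in their order along the chromosome, 1 panel a run, with bars for the SE and filled points for a limma adjusted p under 0.05. Cyp2b1 at 3.99 and Cyp2b3 at -1.58, separated by Cyp2b2, have opposite signs, as do Cyp2j4 at 1.16 and Cyp2j3 at -1.48.

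Other genes of P450 function and control were counted from 6 lists. Of all genes, 2.23% were called at 2 against 12 weeks (1.29% higher, 0.937% lower) and 0.455% at 2 against 4 weeks. These shares apply to the lists and to the cell markers below, and a single call is not a result about its list. Of 18 measured genes of electron supply and haem, 1 was called higher at 2 against 12 weeks. This was the haem oxygenase Hmox1, by 1.52 ± 0.31 (limma adjusted p = 0.04988). Its mean was 9.55 at 2 weeks, 9.23 at 4 weeks, 8.03 at 12 weeks and 9.98 after PH. The PH difference from 12 weeks, 1.95, was larger but not called (limma adjusted p = 0.1165). Alternative settings are given for P450 genes only. Of 26 nuclear receptors and factors, 1 was called higher at 2 weeks, the liver factor Foxa3. It differed by 2.14 ± 0.29 from 12 weeks (limma adjusted p = 0.008954) and by 2.23 from 4 weeks (0.01782). The CAR gene Nr1i3 had a mean of 7.98 at 2 weeks, 9.17 at 4 weeks, 7.95 at 12 weeks and 7.12 after PH, with no call. Also uncalled were the PPAR alpha gene Ppara (1.55) and Esr1 (-2.30) at 2 against 12 weeks. The same held for Dbp (2.39) and Nr0b2 (-1.68) at PH against 12 weeks. Of 12 CAR and PXR targets outside the P450s, 5 were called lower and 0 higher at 2 against 12 weeks: Sult2a1 (-4.21), Slco1a4 (-3.08), Abcc2 (-2.34), Aldh1a1 (-1.79) and Abcb1a (-1.69). These are a sulphotransferase, 3 transporters and a retinaldehyde dehydrogenase, and Slco1a4 was also called lower at 2 against 4 weeks (-3.09). The median of the 12 was -0.58, against -0.01 over all genes. For PH against 12 weeks the median of the 12 was also -0.58, against 0.00 over all genes, with 2 above 0 and 0 called. In that comparison 3 were lower and 1 higher by at least 2-fold without overlap, against 2.38% of all genes in either direction.

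Of 24 PPAR alpha targets outside the P450s, 2 were called higher and 1 lower at 2 against 12 weeks. The median of the 24 was 0.43, against -0.01 over all genes. The pantetheinase Vnn1 was higher by 3.98 and the glycerol channel Aqp7 by 3.29, and the fatty acid carrier Cd36 was lower by 1.88. Vnn1 was also higher at 2 than at 4 weeks, by 2.78 (limma adjusted p = 0.03354). Of 14 pericentral genes outside the P450s, Lgr5 was called higher at 2 than at 12 weeks, by 1.59 (limma adjusted p = 0.04109). Slc1a2 (-1.85) and Lect2 (1.67) had larger differences there but were not called. At 2 against 4 weeks the 3 largest differences, Slc1a2 (-1.55), Rhbg (-1.30) and Nr1i3 (-1.19), were lower and not called. The median of the 14 was 0.14 at 2 against 12 weeks and 0.02 at 2 against 4 weeks. Of 4 measured Ah receptor targets 0 were called in any comparison. In all 6 lists 0 genes were called in PH or in 4 weeks against 12 weeks, where 0.0345% and 0.11% of all genes were called. So few calls over all genes leave these counts of 0 uninformative about the lists. After PH, 18 of the 24 PPAR alpha targets lay above their 12-week mean (median 0.31, against 0.00 over all genes). At least 2-fold apart without overlap were 5 higher and 2 lower, against 2.38% of all genes in either direction. Among other cell types, 3 of 5 erythroid markers were called higher at 2 against 12 weeks. Their mean levels were 8.48 and 7.28 at 2 weeks, 6.71 and 7.15 at 4 weeks, 5.63 and 5.64 at 12 weeks, and 5.35 and 5.17 after PH. Of 10 stellate and fibroblast markers 2 were called higher at 2 against 12 weeks. The mean levels of the 10 were 8.63 and 8.35 at 2 weeks, 8.91 and 7.74 at 4 weeks, 7.23 and 7.20 at 12 weeks, and 7.24 and 7.33 after PH. Neutrophil markers stood at 8.05 and 5.81 at 2 weeks and at 5.15 and 4.86 at 12 weeks, with 0 of 6 called. The part of these cells in the P450 differences was not tested. Markers of bile duct cells (5 measured), endothelium (5), macrophages (6) and lymphocytes (5) had 0 calls in the 4 comparisons.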

How the data were processed

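Liver RNA of 4 groups was measured on 8 arrays. Per the submitters' processing notes, which name RMA and Affymetrix Expression Console, the authors summarised the probes with RMA, and the range of the deposited values is that of a log2 scale. Version, build and filter: not given in the sources used here. RMA subtracts background, equalises the arrays and compresses low signals, and the number of arrays limits the precision.

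Of 29214 probe sets, 15316 had 1 symbol, 317 several and 13581 none here. Of those with 1 symbol, 15279 matched the RefSeq gene table (GRCr8, used for names, neighbours and promoters). The probe set of highest mean stood for a gene, which left 14511 genes. All 4 groups were fitted in 1 model with limma 3.58.1 (R 4.3.3), with 4 residual and 4.27 prior degrees of freedom, and tests were two-sided. The model was tested on simulated data.

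Genes named were those called, the 5 largest of at least 2-fold without overlap in each comparison, and a list of textbook members. Cyp4a2 and Cyp19a1 were on that list but not among the 53. Genes outside the P450s were named if called or among the 3 largest of their list. Cyp2b12, Cyp2b15, Cyp2b21, Cyp2j10, Cyp2t1, Cyp4f5 and others of the 53 were added to account for every member, with their values known. The members and lists were chosen with earlier results of these data known. Alternatives left out each array, added the replicate number or the receptor-gene median, rescaled the arrays, dropped low genes, tested all probe sets, or let the spread follow the level.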

Additional observations from a re-analysis of the deposited data

How the results depend on the processing

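The counts of called members for PH and for 4 weeks against 12 weeks were 0 under each alternative run. No called difference changed direction, but most of the runs could not have changed it. For called differences the arrays of the 2 groups did not overlap, so leaving out 1 array keeps the sign. A replicate block, a spread that follows the level, dropping low genes and testing all probe sets leave the difference itself unchanged. Only rescaling the arrays or adding the receptor-gene median could have changed the direction. Called members at 2 against 12 weeks (9) numbered 5 when all probe sets were tested and 3 to 8 when 1 array was left out. At 2 against 4 weeks (4) they numbered 2 with median centring (1 higher and 1 lower), 2 with all probe sets and 0 to 5 without 1 array. In the F test (7) they numbered 11 with the receptor-gene covariate, 3 with all probe sets and 1 to 9 without 1 array. Members at least 2-fold apart without overlap numbered 1 to 6 for PH and 2 to 5 for 4 against 12 weeks without 1 array. Testing all probe sets raised the number of tests and also changed the estimate of spread shared over genes. The part of each in the lost calls was not tested.

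With the replicate number as a block, 10 members were called at 2 against 12 weeks, 5 at 2 against 4 weeks and 11 in the F test. Deviations of same-numbered arrays correlated between groups with r from 0.0229 to 0.5679, and with 2 numbers these are not shown to pair the animals. With 2 arrays a group, a difference that did not pass may still exist, and levels below the median gene may be background.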
